A study of Mus musculus with 4 samples.

Results

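A set of 10 genes that drive or hold back the step from rest into DNA replication was followed in dissociated mouse islets: the D-type cyclins Ccnd1, Ccnd2 and Ccnd3, their kinases Cdk4 and Cdk6, and the kinase inhibitors Cdkn1a, Cdkn1b, Cdkn1c, Cdkn2a and Cdkn2c. They were taken by symbol, and all 10 of 10 were found among the 32285 genes of the count matrices, each with at least 1 unique molecular identifier (UMI) in every library. Islets came from male wild-type mice (WT) and from male mice homozygous for a Pax4 knock-in allele (HH), so both germline copies were changed in every cell of the HH animals. Groups WT SCD and HH SCD were 12 weeks old and on a standard chow diet (SCD), and groups WT HFD and HH HFD were 16 weeks old and had eaten a high-fat diet (HFD) for 4 weeks. Each group was 1 droplet 3′ single-cell RNA library made from the pooled islets of 2 to 3 mice. Library and group therefore cannot be told apart, age and diet cannot be told apart, and no value below has a replicate check or a p-value.

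Cyclin D binds Cdk4 or Cdk6, and the complex phosphorylates the retinoblastoma protein, which releases E2F transcription factors and opens the way into S phase. The CIP/KIP proteins p21 (Cdkn1a), p27 (Cdkn1b) and p57 (Cdkn1c) bind whole cyclin and kinase complexes, whereas the INK4 proteins p16 (Cdkn2a) and p18 (Cdkn2c) bind the kinase and keep cyclin D off it. Cdkn2a also encodes p19Arf from another first exon and reading frame. Adult mouse beta cells rarely divide, rely on Cdk4 and cyclin D2 for postnatal growth, and gather p16 with age.

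Of 22218 barcodes, 12404 cells passed the filters, with 3092, 3082, 1999 and 4231 in WT SCD, HH SCD, WT HFD and HH HFD, an order kept for every series of 4 values below. Cells were grouped by the hormone that held 70% or more of their hormone UMIs, which gave 2038, 1991, 1142 and 2891 Ins cells, 1553 Gcg cells, 938 Sst cells and 499 Ppy cells, and 115 cells lay between 3 and 8% hormone UMIs, near the limit of 5%. Each hormone gene and each group's summed marker list were highest in their own group. Single markers departed from this, since Pdx1 was as high in Sst as in Ins cells and neither Etv1 nor Aqp4 was highest in Ppy cells. Summed endothelial, macrophage, stromal and lymphocyte markers each stayed at or under 56.1 CPM (UMIs scaled to a library sum of 1e6) in Ins cells of every library. Pairs of libraries shared 6 to 11 barcodes, or 0.129 to 0.236% of the smaller library. Median UMIs per Ins cell were 26293, 26182, 29791.5 and 24140, and CPM were taken over the summed UMIs of a cell group in a library. Intervals are exact 95% intervals for counting error alone, except for differences. Those of a difference between log2 ratios are normal approximations, and those of a difference of shares combine the exact limits of both shares. Genes that averaged at least 5 CPM over the 4 libraries of a cell group were compared, and a gene was called past the fold when its log2 ratio was 0.5 or more in size with an interval clear of 0.

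Promoter windows of Cdkn2a and Cdkn2c are printed first, because transcripts of both INK4 genes stood out in cycling cells (below), and because Cdkn2a has 2 start sites that 3′ counts cannot separate. They run from 250 bases before to 50 bases after each RefSeq start (GRCm38.p6, minus strand, written 5′ to 3′). Start 1 of Cdkn2a, the upstream of the pair, lies at chr4:89294570-89294869 and start 2 at chr4:89282143-89282442. The Cdkn2c windows lie at chr4:109666707-109667006 for start 1 and chr4:109665323-109665622 for start 2. Capitals mark 2 motifs on either strand, the GC-rich word GGCGGG and the E2F-type words TTTGGCGC, TTTCGCGC and TTTCCCGC. The GC box form GGGCGG was not searched.
Cdkn2a start 1: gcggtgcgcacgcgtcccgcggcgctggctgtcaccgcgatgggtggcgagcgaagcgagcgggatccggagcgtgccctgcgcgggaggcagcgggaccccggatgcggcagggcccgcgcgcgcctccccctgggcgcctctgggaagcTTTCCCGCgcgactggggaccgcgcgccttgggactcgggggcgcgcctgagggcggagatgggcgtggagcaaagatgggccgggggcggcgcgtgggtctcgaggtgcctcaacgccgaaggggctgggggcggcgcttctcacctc
Cdkn2a start 2: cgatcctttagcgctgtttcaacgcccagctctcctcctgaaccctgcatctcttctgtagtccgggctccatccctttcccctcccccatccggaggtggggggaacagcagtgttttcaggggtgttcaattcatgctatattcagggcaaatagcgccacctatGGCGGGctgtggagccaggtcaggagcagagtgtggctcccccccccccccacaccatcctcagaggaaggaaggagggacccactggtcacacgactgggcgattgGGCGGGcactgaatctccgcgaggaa
Cdkn2c start 1: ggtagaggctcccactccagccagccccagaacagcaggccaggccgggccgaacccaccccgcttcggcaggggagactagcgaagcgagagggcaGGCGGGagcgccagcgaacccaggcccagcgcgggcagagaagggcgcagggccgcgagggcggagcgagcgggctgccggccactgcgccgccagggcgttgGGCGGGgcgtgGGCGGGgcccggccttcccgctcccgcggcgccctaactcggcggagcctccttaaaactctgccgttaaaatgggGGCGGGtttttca
Cdkn2c start 2: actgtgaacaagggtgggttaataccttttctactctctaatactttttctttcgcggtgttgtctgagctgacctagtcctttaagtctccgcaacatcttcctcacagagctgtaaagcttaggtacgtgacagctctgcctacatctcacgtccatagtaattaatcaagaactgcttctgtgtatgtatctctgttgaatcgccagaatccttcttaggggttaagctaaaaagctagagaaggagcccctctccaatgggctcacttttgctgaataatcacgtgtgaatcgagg
The first Cdkn2a window was 77% G and C and held 1 E2F-type word and no GGCGGG word, though it contains GGGCGG. The second was 60.3% G and C and held 2 GGCGGG words. Cdkn2c start 1 held 4 GGCGGG words at 73.3% G and C, and start 2 held neither motif at 44% G and C. Across 32851 RefSeq windows of this length, 35.3% held a GGCGGG word and 1.84% an E2F-type word. Among the 11 windows of the 7 members with an entry, 6 held the former and 1 the latter. A match is a description of letters and not a binding site. No window was found for Ccnd1, Ccnd2 and Cdkn1c.

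Ccnd2 was measured most deeply of the 10 genes in Ins cells. It lies on chromosome 6 from 127125162 to 127152193 on the minus strand (mm10, as for all positions). In Ins cells it stood at 778 CPM in WT SCD, 704 CPM in HH SCD, 861 CPM in WT HFD and 627 CPM in HH HFD, on 42533, 37268, 29392 and 44972 UMIs. Both HH libraries were thus lower than both WT libraries, and the gap was wider after HFD. Gcg cells held 856, 835, 809.7 and 726 CPM, and Sst cells 671, 660.0, 721 and 669 CPM. The Ins range overlapped those of Gcg and Sst cells, which lay apart from each other, and Ppy cells stood apart at 318, 302, 322 and 298 CPM.

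Ccnd1, at chromosome 7 from 144929931 to 144939925, was the most even member in Ins cells. Its Ins values were 119.7, 117, 117 and 115 CPM, so the 4 libraries lay close together in both diets. Sst cells were higher at 215, 206, 208 and 216 CPM, a range clear of that in every other hormone group, with Gcg cells at 90.9 to 113 CPM and Ppy cells at 78.9 to 94.5 CPM. The third D cyclin, Ccnd3 (chromosome 17, 47505051 to 47599691), ran from 16.7 to 18.8 CPM in Ins cells, 27.1 to 35.1 CPM in Gcg cells, 31.5 to 38.5 CPM in Ppy cells and 41.9 to 52.3 CPM in Sst cells. Ins cells were lowest in all 4 libraries, and only the Gcg and Ppy ranges overlapped.

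Of the kinases, Cdk4 (chromosome 10, 127063534 to 127067920) was present in every endocrine group. It ran from 42.5 to 46.4 CPM in Ins cells and from 66.9 to 82.7 CPM in Sst cells, with Gcg and Ppy cells between them. Cdk6, the other cyclin D kinase (chromosome 5, 3341485 to 3531008), was near the limit of detection, at 0.421, 0.472, 0.439 and 0.683 CPM in Ins cells on 23, 25, 15 and 49 UMIs. In Gcg cells it reached 2.50 to 3.02 CPM on 12 to 15 UMIs, a range clear of the other hormone groups. Its levels in macrophages were 79.1, 106, 66.9 and 87.2 CPM, so that its counts in islet libraries came at far higher density from cells without a hormone.

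Among the CIP/KIP inhibitors, Cdkn1a (chromosome 17, 29090976 to 29100727), a textbook p53 target, stood at 35.4, 29.4, 36.0 and 32.5 CPM in Ins cells. Gcg cells held 53.3, 57.3, 74.2 and 77.8 CPM, with both HFD libraries above both SCD libraries, while Sst cells stayed at 40.1 to 44.6 CPM. Cdkn1b (chromosome 6, 134920401 to 134925513), the inhibitor linked to keeping beta cells at rest, was ordered without overlap from Sst cells at 55.7 to 75.7 CPM through Gcg and Ppy cells to Ins cells at 30.3, 25.4, 31.8 and 25.2 CPM. Cdkn1c (chromosome 7, 143458339 to 143461050), an imprinted gene, rested on few UMIs. It averaged 6.08 CPM in Gcg cells against 1.05 CPM in Ins cells, with 8.34, 6.23, 6.83 and 2.92 CPM in Gcg cells and ranges that did not overlap with any other hormone group.

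The INK4 genes split by cell group. Cdkn2a (chromosome 4, 89274471 to 89294653) had 36, 62, 38 and 105 UMIs in Ins cells, or 0.658, 1.17, 1.11 and 1.46 CPM. It had 0, 0, 2 and 2 UMIs in Gcg cells, 2, 0, 0 and 0 in Sst cells and 0 in Ppy cells of all 4 libraries. A count of 0 allowed up to 0.610 CPM in Gcg cells of WT SCD and 0.603 CPM in those of HH SCD, against Ins levels of 0.658 and 1.17 CPM. The log2 ratio of that limit to the Ins level had an upper bound of 0.26 in WT SCD and -0.62 in HH SCD, so a gap was detectable in the latter. In Ppy cells a count of 0 allowed 1.11 to 1.93 CPM, which was below the Ins level in HH HFD (upper bound -0.08) and not in the other 3 libraries. Cdkn2c (chromosome 4, 109660876 to 109667189) stood at 7.43, 6.97, 7.20 and 9.84 CPM in Ins cells, with HH HFD highest and its interval clear of those of the other 3 libraries. Gcg cells held 12.8, 12.7, 13.2 and 9.38 CPM on 63, 63, 58 and 45 UMIs, lowest in HH HFD. The log2 ratio of HH over WT on HFD was -0.49 (-1.09 to 0.09) there, so no direction was shown. Sst cells held 2.80, 5.46, 4.35 and 13.1 CPM on 8, 15, 8 and 26 UMIs.

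**Figure D1:**
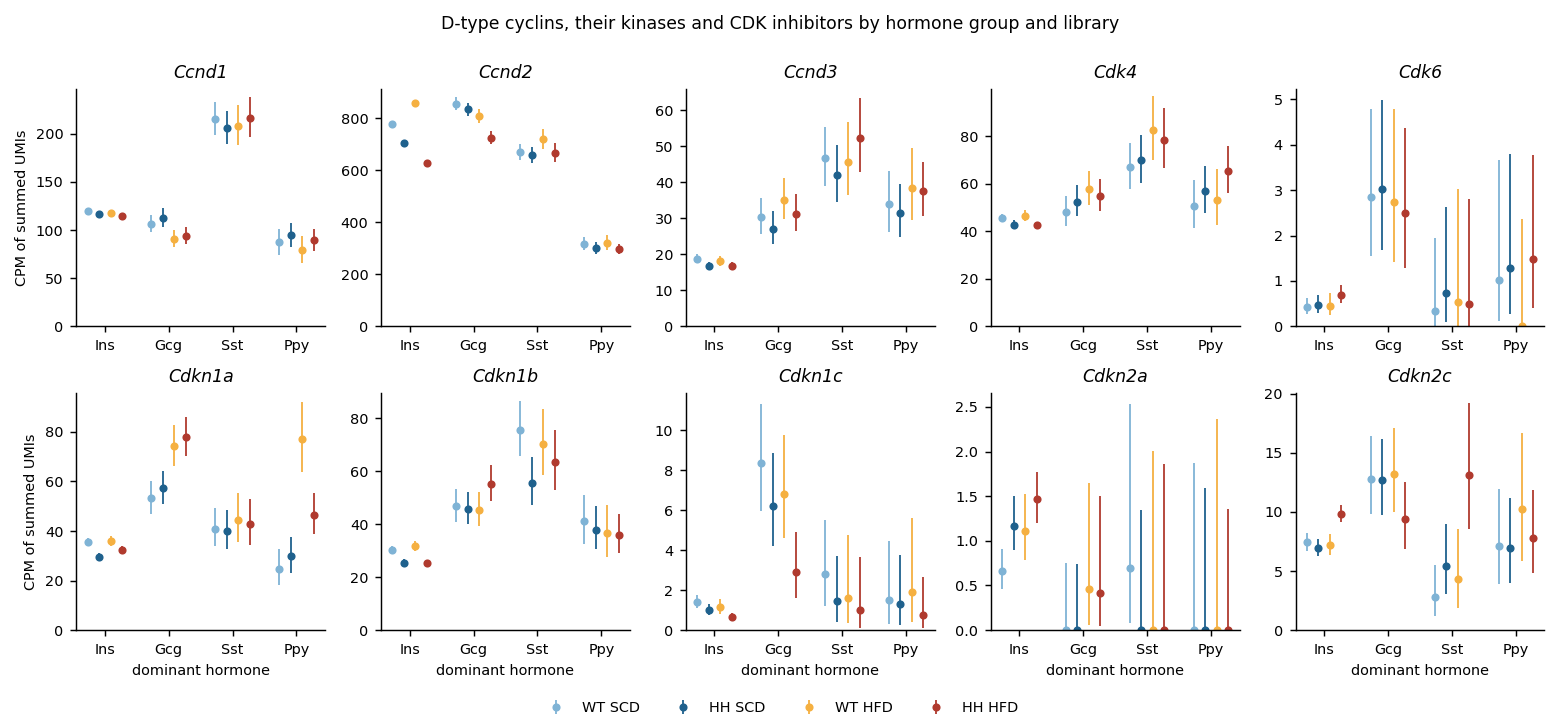
Levels of the 10 genes in Ins, Gcg, Sst and Ppy cells (horizontal axis) in CPM (vertical axis, from 0 in each panel), 1 point per library with an exact 95% Poisson interval. Ccnd2 in Ins cells runs from 627 CPM in HH HFD to 861 CPM in WT HFD, whereas Ccnd1 stays between 115 and 119.7 CPM.

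The order of the hormone groups depends on what CPM is taken over, because insulin transcripts fill much of an Ins cell. UMIs outside hormone, Iapp and mitochondrial genes were 36.4, 35.0, 35.6 and 35.0% of the total in Ins cells, against 59.0 to 62.9% in Gcg cells, 71.3 to 73.3% in Sst cells and 55.9 to 59.4% in Ppy cells. With those genes left out of the total, Ins cells became the highest group for Ccnd1 (mean 330.0 against 294 in Sst cells), Ccnd2 (2090 against 1321 in Gcg cells) and Cdk4 (125 against 104 in Sst cells), without overlap of the ranges. The mean of Cdkn2c also turned, at 22.2 in Ins cells against 19.7 in Gcg cells, through HH HFD alone (28.1 against 15.5), and Gcg cells stayed higher in the other 3 libraries. Ccnd3 and Cdkn1b kept Sst cells as the highest group, Cdk6, Cdkn1a and Cdkn1c kept Gcg cells, and Cdkn2a kept Ins cells. The same group was highest on both scales, with a range clear of the others, for Cdk6 and Cdkn1c (Gcg cells). For Cdkn2a the Ins mean was highest on both scales. Its Ins range in CPM, 0.658 to 1.46, overlapped that of Sst cells, 0 to 0.701.

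After each cell was thinned to 3000 UMIs, Ccnd2 was seen in 87.4, 83.7, 87.3 and 80.2% of Ins cells and Ccnd1 in 29.0, 29.1, 27.1 and 29.1%. Cdk4 was seen in 11.5 to 13.6%, Cdkn1b in 7.63 to 9.57%, Cdkn1a in 7.99 to 9.11%, Ccnd3 in 4.27 to 5.87% and Cdkn2c in 2.06 to 2.87%. Without thinning, Cdkn2a was seen in 1.67, 3.01, 2.89 and 3.36% of Ins cells, at median depths that differ as given above.

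The comparison of HH with WT asked whether the knock-in allele goes with another level of these genes within a diet. In Ins cells, 7 of 10 members were in use, and none was past the fold on SCD, where 0.948% of the 8334 genes in use were. Again none was past it on HFD, where 4.57% of genes were. All 7 ratios were below 0 on SCD and 6 of 7 on HFD, but the median ratio of all genes was itself -0.09 and -0.14, with 22.4 and 24.0% of genes above 0. The medians of the 7 members, -0.14 and -0.13, lay close to those.

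Ccnd2 showed the clearest genotype gap of the cyclins in Ins cells. Its log2 ratio of HH over WT was -0.14 (-0.16 to -0.12) on SCD and -0.46 (-0.48 to -0.44) on HFD, which is 27.2% less in HH HFD than in WT HFD. Among all genes in use these ratios stood at percentile 31.8 and percentile 4.93, so the SCD value was within the bulk of genes and the HFD value near its lower edge. Scaling by median-of-ratios, which sets the typical gene to about no change, gave -0.33 on HFD. Ccnd1 differed by -0.04 (-0.09 to 0.01) and -0.03 (-0.09 to 0.02), and Ccnd3 by -0.17 (-0.30 to -0.04) and -0.11 (-0.26 to 0.03). On HFD the other D cyclins lay above the all-gene median, while on SCD Ccnd3 lay below it, as Ccnd2 did.

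Read cell by cell, the shift in Ccnd2 ran through the distribution. Ins cells without a Ccnd2 UMI after thinning made up 12.6, 16.3, 12.7 and 19.8%, and the mean was 2.39, 2.11, 2.58 and 1.95 UMIs with a median of 2 in every library. The HFD ratio was below 0 at every depth, at -0.38 in cells of 3000 to 15000 UMIs, -0.46 to 25000, -0.54 to 35000 and -0.49 to 50000. On SCD the same ranges gave -0.34, -0.10, -0.15 and -0.18. Ins cells without a Mafa UMI but with a UMI of Gc, Aldh1a3 or Serpina7, genes of immature or dedifferentiated beta cells, made up 3.53, 4.17, 6.74 and 22.9% after thinning. None of the 7 members was past the fold between such cells and other Ins cells in all 4 libraries, against 0.06% of genes. The Ccnd2 ratio of HH over WT on HFD was -0.60 (-0.67 to -0.53) within those cells and -0.41 (-0.43 to -0.38) within the others. The gap on HFD was therefore present on both sides of that split. On SCD the ratio was 0.09 (-0.02 to 0.20) within those cells and -0.15 (-0.17 to -0.13) within the others. Markers of the other hormone groups were also highest in Ins cells of HH HFD, where the Gcg list summed to 3266 CPM against 1616 CPM in WT HFD, the Ppy list to 1079 against 437 CPM and the Sst list to 203 against 82.5 CPM. Among Ins cells with 90% or more of their hormone UMIs in insulin, the HFD ratio was -0.46 for Ccnd2 and 0.43 for Cdkn2c.

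**Figure D2:**
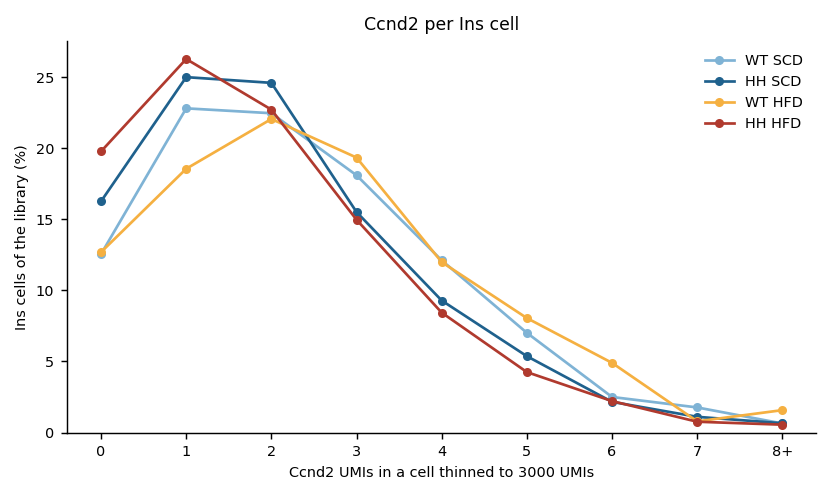
Share of Ins cells (vertical axis, %) with 0 to 7 or with 8 or more Ccnd2 UMIs after thinning to 3000 UMIs per cell (horizontal axis), 1 line per library. HH HFD has the most cells at 0 UMIs, 19.8% against 12.7% in WT HFD.

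Cdk4 differed by -0.09 on SCD and -0.13 (-0.21 to -0.04) on HFD, next to the all-gene median in both. Cdk6, under 5 CPM, gave 0.17 (-0.71 to 1.05) and 0.64 (-0.22 to 1.58), too few UMIs to show a direction. For the inhibitors, Cdkn1a was lower in HH on SCD at -0.27 (-0.36 to -0.17, percentile 8.02) and nearer to other genes on HFD at -0.15 (-0.25 to -0.05). Cdkn1b was lower in both, at -0.26 (-0.36 to -0.15) and -0.33 (-0.44 to -0.22), percentiles 9.18 and 13.9. Cdkn1c fell under 5 CPM and gave -0.47 (-0.99 to 0.06) and -0.83 (-1.48 to -0.18), on 46 UMIs in HH HFD against 39 in the smaller WT HFD sum.

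Cdkn2c went the other way on HFD. Its ratio was -0.09 (-0.30 to 0.12) on SCD and 0.45 (0.24 to 0.66) on HFD, at percentile 98.4 of all genes, and it was the one member in use with a ratio above 0. Without the cells in cycle described below, the HFD ratio was 0.14 (-0.08 to 0.37). Cdkn2a gave 0.83 (0.22 to 1.47) on SCD and 0.39 (-0.15 to 0.97) on HFD, from the low counts above, and whether p16 or p19Arf transcripts were counted cannot be told apart. WT SCD had the lowest Cdkn2a level, and the other 3 libraries overlapped in their Poisson intervals.

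**Figure D3:**
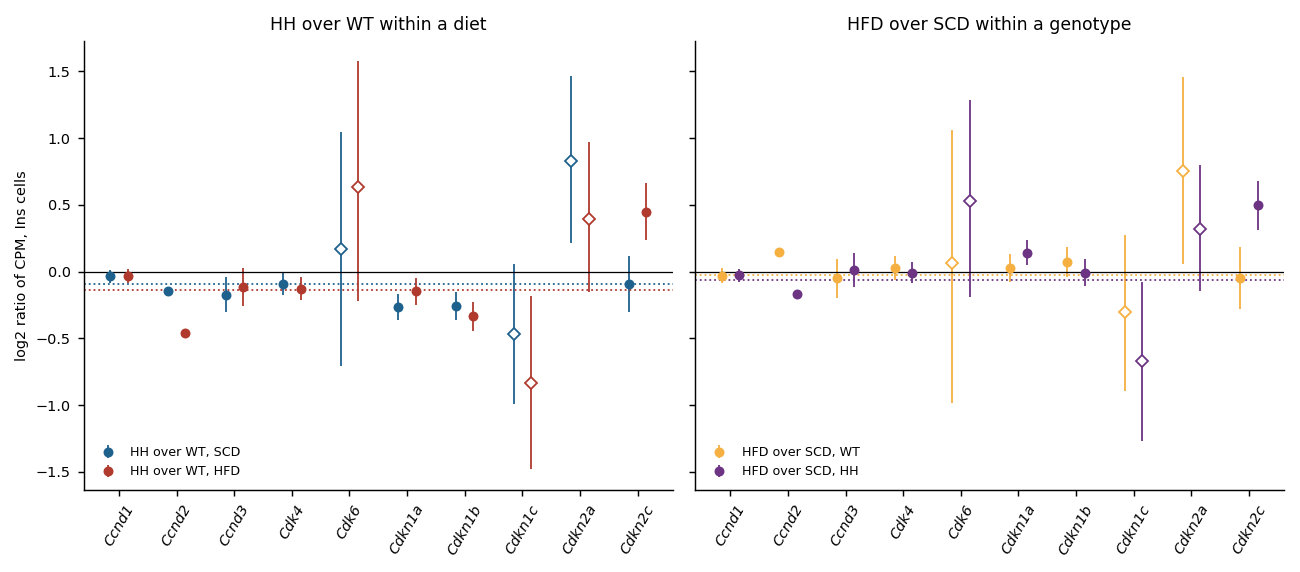
Log2 ratios in Ins cells for each member with exact 95% intervals, HH over WT in both diets on the left and HFD over SCD in both genotypes on the right (filled, 5 CPM or more, and open diamonds, under 5 CPM). Dotted lines mark the median of all genes, and Ccnd2 lies at -0.46 and Cdkn2c at 0.45 for HH over WT on HFD.

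Diet and age together were compared within each genotype, on the same 4 libraries as above. In Ins cells, none of the 7 members was past the fold in WT, where 8.06% of genes were, and none in HH, where 12.3% were. Ccnd2 moved in opposite directions, at 0.15 (0.12 to 0.17) in WT and -0.17 (-0.19 to -0.15) in HH, at percentiles 76.0 and 34.7 of all genes, within the bulk of them. The difference between those ratios was -0.31 (-0.34 to -0.28), against a median of -0.04 over all genes. Cdkn2c gave -0.04 (-0.28 to 0.19) in WT and 0.50 (0.31 to 0.68) in HH, just under the limit before rounding, with a difference of 0.54 (0.25 to 0.83). Cdkn1a gave 0.03 and 0.14 (0.05 to 0.24) and Cdkn1b 0.07 and -0.01. Cdkn2a was higher after HFD in WT, at 0.76 (0.06 to 1.46), and gave 0.32 (-0.15 to 0.80) in HH. Summed ductal markers, keratins and Epcam among them, were also lower in the HFD libraries of Ins cells (736, 713, 344 and 332 CPM), and their part in the values by diet was not tested.

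In Gcg cells, 8 members were in use. None was past the fold on SCD, where 3.29% of genes were, and 1 was on HFD, where 3.87% were. This was Cdkn1c, with 14 UMIs in HH HFD against 30 in WT HFD and a ratio of -1.23 (-2.26 to -0.27). Ccnd2 gave -0.04 (-0.10 to 0.03) and -0.16 (-0.22 to -0.09), a smaller gap than in Ins cells, and its difference between diets was -0.12 (-0.21 to -0.03). Cdkn1b was not lower in HH there, at -0.04 on SCD and 0.29 (0.02 to 0.56) on HFD. Cdkn1a was higher after HFD in both genotypes, at 0.48 (0.24 to 0.72) in WT and 0.44 (0.21 to 0.67) in HH. Lymphocyte markers summed to 2.6, 8.2, 10.9 and 297 CPM in Gcg cells, highest in HH HFD, and their part in these ratios was not tested.

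Of the 7 members in use in Sst cells, none was past the fold on SCD against 3.86% of genes. On HFD 1 was, Cdkn2c, against 4.6% of genes. It was in use only through HH HFD, since its mean over the other 3 libraries was 4.21 CPM, so its place among the members past the fold is no result. It had 26 UMIs in HH HFD against 8 in WT HFD, a ratio of 1.59 (0.40 to 2.94), but the top 1% of HH HFD Sst cells held 53.9% of those UMIs. Without cells in cycle the ratio was 0.80 (-0.53 to 2.25), with a hormone share of 10% or more 0.71 (-0.65 to 2.17), and with a dominant share of 90% it turned to -0.0472 (-2.17 to 2.07). Ccnd2 gave -0.02 (-0.12 to 0.07) and -0.11 (-0.22 to 0.00), and Cdkn1b -0.44 (-0.75 to -0.14) on SCD and -0.15 (-0.51 to 0.22) on HFD. In Ppy cells Cdkn1a ran at 24.8, 29.8, 77.0 and 46.5 CPM on 49, 69, 120 and 126 UMIs, with both HFD libraries above both SCD libraries as in Gcg cells, and HH over WT on HFD gave -0.73 (-1.10 to -0.35). Lymphocyte markers there summed to 0.5, 0.4, 32.7 and 839.7 CPM and the Sst list to 308, 363, 322 and 1894 CPM, and their part in the Cdkn1a values was not tested. Ccnd2 in Ppy cells differed by -0.08 (-0.23 to 0.08) and -0.11 (-0.27 to 0.05).

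Cells in cycle were set apart by transcripts of the G2 and M phases, a list that holds no member, at 3 or more list UMIs after thinning. That list marked 1.23, 1.31, 2.19 and 3.56% of Ins cells, a difference of HH minus WT of 0.08 percentage points (-0.65 to 0.82) on SCD and 1.37 (0.16 to 2.44) on HFD. However, Spc25, a kinetochore gene on the list, gave 74.1 to 93.2% of the list's UMIs in Ins cells. It stood at 107, 101, 157 and 171 CPM there, while the proliferation marker Mki67 stood at 2.30, 2.38, 1.61 and 6.54 CPM. Spc25 lies 4878 bases from the islet gene G6pc2, on the opposite strand. With Spc25 left out, a choice made after seeing the data, 7, 11, 2 and 35 Ins cells were in cycle, or 0.343, 0.552, 0.175 and 1.21%. The differences of HH minus WT were then 0.21 points (-0.25 to 0.69) on SCD and 1.04 points (0.45 to 1.53) on HFD. After thinning the share was highest in HH HFD by either list. Without thinning the whole list gave HH minus WT on HFD as -6.53 points (-9.75 to -3.24), the opposite direction, while without Spc25 the unthinned shares were 0.54, 1.16, 1.31 and 3.11%, with HH HFD still the highest.

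None of the 7 members in use was past the fold between cycling and other Ins cells in all 4 libraries by the whole list, against 0.528% of genes. Without Spc25 none was either, against 1.63% of genes, with only 2 cycling cells in WT HFD. In the 3 libraries other than WT HFD, 3 members were past it in each, against 4.8% of genes, namely Cdkn2c, Cdkn1a and Cdk4. Cdkn2c was 4.77, 4.46 and 4.07 higher on the log2 scale in cycling cells of WT SCD, HH SCD and HH HFD. Cdkn1a was 2.01, 1.46 and 1.42 higher and Cdk4 1.05, 1.32 and 1.09 higher. An inhibitor of the INK4 kind, an inhibitor of the CIP/KIP kind and the kinase itself were thus all higher in the cells that carried mitotic transcripts.

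A looser filter on cells (1000 UMIs or more, under 20% mitochondrial UMIs, no upper bounds), also without Spc25, gave 19 of 2641, 18 of 2405, 15 of 1920 and 65 of 3365 Ins cells in cycle, so that every library held at least 15. Then 4 of 7 members were past the fold in all 4 libraries, each higher in cycling cells, against 8.11% of genes. Cdkn2c stood at 243, 165, 193 and 135 CPM in cycling cells and at 6.85, 6.30, 7.20 and 7.92 CPM in the others, log2 ratios of 5.15, 4.71, 4.74 and 4.09. Cdkn1a was higher by 1.37, 1.65, 1.02 and 1.55, Cdkn1b by 0.70, 1.11, 1.03 and 0.82, and Cdk4 by 0.89, 1.27, 0.94 and 0.92. Cdkn2a, under 5 CPM, was higher by 4.24, 3.58, 4.32 and 3.60 on 8, 7, 14 and 35 UMIs in cycling cells. The INK4 pair thus showed the widest gaps of the members with UMIs in cycling cells of every library.

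Among the cyclins, Ccnd2 was lower in these cycling Ins cells of all 4 libraries, at log2 ratios of -0.44, -0.88, -0.73 and -0.31. The stricter filter without Spc25 gave -0.39, -0.81, -1.37 and -0.56, each clear of 0. By the whole list that includes Spc25, with the stricter filter, the Ccnd2 ratios were 0.02, -0.02, 0.08 and -0.02, each with an interval that spans 0, so among these settings the gap was seen only with Spc25 left out. Cdkn2c gave 3.18, 3.14, -0.13 and 2.77 there and Cdkn1a ran from 0.55 to 1.20. With the looser filter and without Spc25, Ccnd1 gave -1.14, -0.25, -0.59 and -0.06, with intervals clear of 0 in both WT libraries only. Ccnd3 gave -0.38, 0.92, 0.38 and 0.55. With the stricter filter it was above 0 in all 4 libraries, at 0.59, 0.99, 0.11 and 1.16 without Spc25 and 0.05, 0.86, 0.22 and 0.47 by the whole list, and 5 of these 8 intervals spanned 0. Cdk6 had 0, 0, 0 and 2 UMIs in cycling cells.

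**Figure D4:**
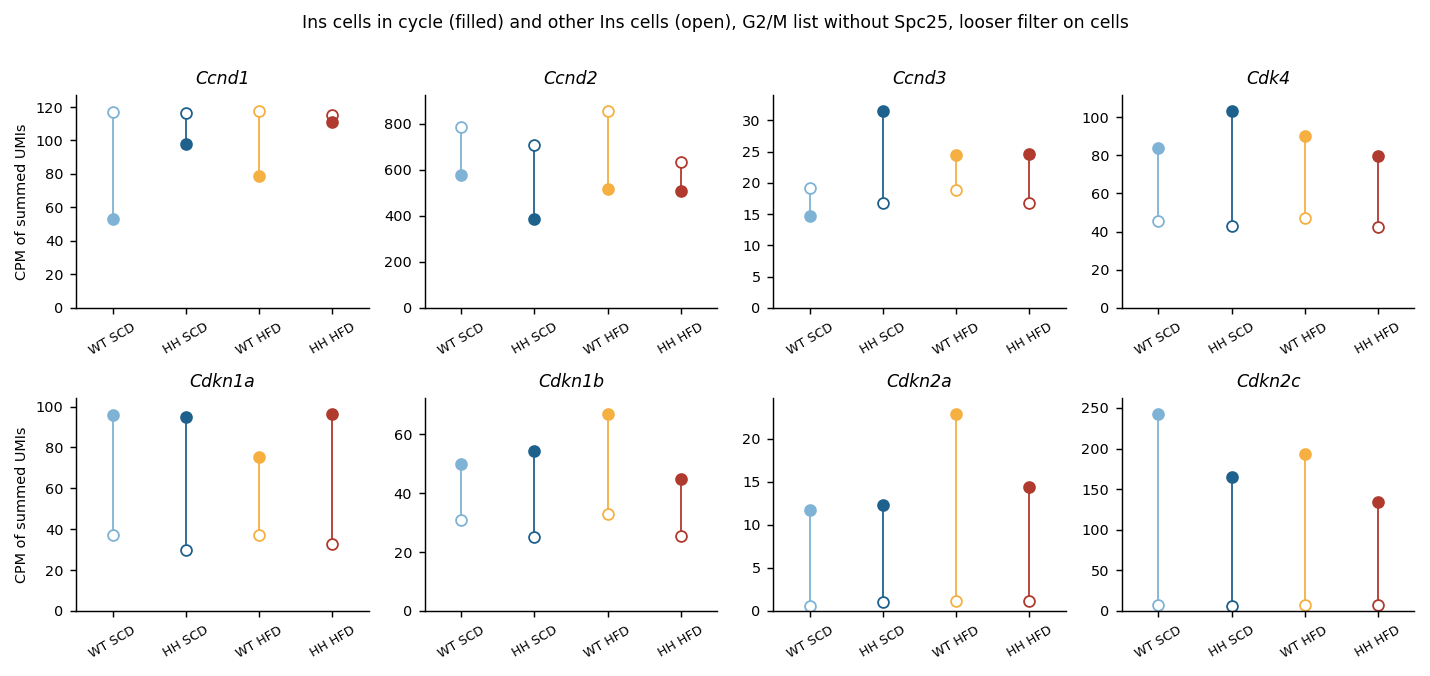
Levels of 8 members in cycling Ins cells (filled) and other Ins cells (open) of each library, in CPM (vertical axis, linear, from 0), with the looser filter on cells and Spc25 left out of the list. Cdkn2c lies at 135 to 243 CPM in cycling cells and at 6.30 to 7.92 CPM in the others, while Ccnd2 is lower in cycling cells of all 4 libraries, which the whole list did not show.

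These few cells weighed on the sums of the INK4 genes. In HH HFD, 35 cycling cells of the stricter filter held 1.47% of all UMIs of Ins cells but 20.1% of the Cdkn2c UMIs (142 of 706) and 18.1% of the Cdkn2a UMIs (19 of 105). In WT SCD and HH SCD, cycling cells held 9.61 and 10.3% of Cdkn2c UMIs, and in WT HFD, with only 2 cycling cells, 0%. Of barcodes, 61.9, 67.8, 38.3 and 61.6% passed the stricter filter. Under the looser filter without Spc25, cycling cells held 165, 94, 118 and 328 Cdkn2c UMIs. The other Ins cells then held 451, 380, 332 and 610, so WT HFD no longer stood apart. By contrast, cycling cells of the stricter filter held 0.0578 to 1.0% of Ccnd2 UMIs, and leaving them out kept the Ccnd2 ratio on HFD at -0.45.

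Outside the endocrine cells the levels of several members differed widely between cell types. Cdkn1a was 1237, 1012, 547 and 625 CPM in endothelial cells and 683, 498, 201 and 298 CPM in macrophages, with both SCD libraries above both HFD libraries in each. Endothelial Ccnd1 stood at 305, 396, 413 and 504 CPM. Cdkn2c in endothelial cells was 9.19, 7.29, 12.0 and 42.0 CPM on 7, 4, 14 and 53 UMIs, so HH HFD stood apart there too. Stromal cells held the most Cdkn1c, at 219, 75, 175 and 98.9 CPM from 37, 13, 44 and 90 cells. Numbers of macrophages (18, 10, 56 and 26) and ductal cells (26, 19, 10 and 24) were small, so their values rest on few cells.

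**Figure D5:**
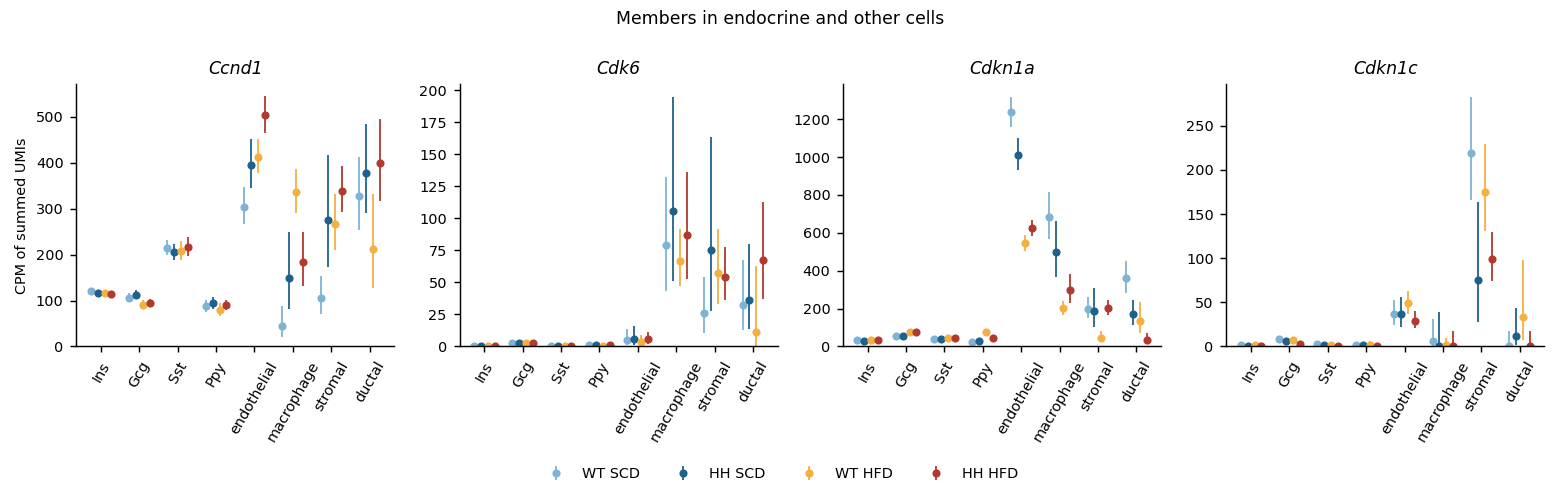
Ccnd1, Cdk6, Cdkn1a and Cdkn1c in 4 endocrine and 4 other cell groups (horizontal axis), in CPM (vertical axis, linear, from 0), 1 point per library with an exact 95% Poisson interval. Endothelial Cdkn1a lies at 547 to 1237 CPM against 29.4 to 36.0 CPM in Ins cells.

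The wider pathway in Ins cells was read from lists of its genes. Of 30 partners in the cycle machinery (other INK4 genes, E-type cyclins, retinoblastoma family, E2F factors, Skp2 and Cks1b), 17 were in use. None was past the fold for HH over WT on SCD (0.948% of all genes) and 1 was on HFD (4.57% of all genes), a share near that of all genes. It was Cks1b, a cofactor in the breakdown of p27, at 26.6 against 18.3 CPM and 0.54 (0.41 to 0.67). The list's medians were -0.09 and -0.05, beside -0.09 and -0.14 over all genes. E2f1, an activating E2F, gave 0.12 on SCD and 0.29 on HFD, whereas E2f4 and E2f5, which act with the retinoblastoma relatives at rest, gave -0.33 and -0.35 on HFD. The lowest on SCD were E2f6 at -0.22 and Ambra1, whose product marks D cyclins for breakdown, at -0.23.

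Of 24 upstream regulators, 17 were in use and none was past the fold in either diet, with 17 of 17 below 0 on SCD and 16 of 17 on HFD and medians of -0.12 and -0.21. Over all genes only 22.4 and 24.0% lay above 0, with medians of -0.09 and -0.14, so ratios below 0 were common in both diets. Nfatc2, a calcineurin-dependent factor, was the lowest in both diets at -0.41 and -0.45. Trp53 gave -0.27 on SCD and Akt1 -0.36 on HFD. Prlr, the prolactin receptor, gave -0.03 on SCD at 453 against 461 CPM, and Foxo1 -0.01, while Tsc2, a brake on mTOR signalling, gave -0.05 on HFD.

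Of 20 p53 targets other than Cdkn1a, 12 were in use and none was past the fold, with medians of -0.05 on SCD and -0.24 on HFD beside the same all-gene medians. Btg2, an antiproliferative gene, gave -0.49 on HFD at 315 against 444 CPM, and Aen -0.39. On SCD the ends of the list were Sesn2 and Bbc3 at -0.20, Zmat3 at 0.10 and Dcxr at 0.18. Ccng1 gave 0.06 and Trp53inp1 -0.05 on HFD. Only 2 of 22 S-phase genes were in use, Pcna at -0.20 and 0.00 and Tyms at -0.09 and 0.41, and only Spc25 of 25 G2 and M genes, at -0.09 and 0.12. No gene in use of these last 3 lists was past the fold for HH over WT. The other G2 and M genes averaged under 5 CPM and so were left out of that count. Each of them was higher in HH HFD than in WT HFD, as Ube2c at 8.63 against 0.410 CPM and Cenpf at 8.06 against 1.55 CPM. At a minimum of 1 CPM, 19 of 83 genes of all lists were past the fold on HFD, against 8.15% of all genes.

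Genes with patterns most like a member were ranked by Pearson r of log2(CPM + 1) over 16 sums (4 hormone groups in 4 libraries) among 4698 genes. The points share libraries and hormone groups, so r describes mainly the groups. Ccnd1 was nearest to Stk32a (0.988), Hap1 and Fxyd6 (both 0.98), and Ccnd2 to Ppm1b (0.959), Lrrn1 (0.956) and Gm15706 (0.946). Ccnd3 was nearest to Atp11b (0.989), Plekhj1 (0.982) and Puf60 (0.98), and Cdk4 to Snx15 (0.973), Ppia (0.967) and H2-K1 (0.960). For the inhibitors, Cdkn1b was nearest to Osbpl1a (0.981), Cbx3 (0.97) and Atl3 (0.969), and Cdkn1c to Fryl (0.938), Pcsk2 (0.933) and H2-Q2 (0.921). Cdkn1a reached 0.888 with Dpp9, 0.883 with Tomm40 and 0.874 with Dpm2, and Cdkn2c 0.801 with Hip1r, 0.795 with Lamp2 and 0.776 with Ogfod2.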

How the data were processed

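Dissociated islet cells were counted by droplet 3′ single-cell RNA sequencing (Chromium v3.1 chemistry), with 1 library for each of 4 groups. The authors aligned reads to GRCm38 (mm10) with Cell Ranger 6.0, per the submitters' processing notes, and deposited raw UMI counts as matrices of genes by filtered barcodes, without normalisation. The annotation release behind them is not given in the sources used here. Libraries held 87472976, 79712168, 68011082 and 104810105 UMIs in 5123, 4665, 5307 and 7123 barcodes (WT SCD, HH SCD, WT HFD, HH HFD).

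Cells with 3000 to 50000 UMIs, 2000 to 5000 genes and under 10% mitochondrial UMIs were kept. Scrublet scores (scanpy 1.11.5) marked 40, 46, 9 and 7 cells at the automatic threshold, too few for these libraries, so the expected number at 0.8% per 1000 cells was removed by highest score, 81, 80, 33 and 154 cells. A cell needed 5% or more of its UMIs in Ins1, Ins2, Gcg, Sst and Ppy and 70% or more of these in 1 hormone. Other cells were grouped by markers with at least 5 UMIs and 2 genes detected. UMIs were summed per group and library and scaled to CPM. Intervals were exact Poisson for CPM, Clopper-Pearson for shares and conditional Clopper-Pearson for log2 ratios, a sum of 0 being set to a floor of 3 counts. With 1 library per group no p-value was computed. A difference between 2 log2 ratios was given a normal interval with a standard error from the reciprocals of the counts. A difference of shares combined the limits of both shares. Shares of cells were taken after thinning to 3000 UMIs.

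The members, gene lists and tests were chosen with earlier results of these data known. In each list the 2 highest and 2 lowest HH over WT ratios per diet were named, and for each member with 5 CPM or more in a hormone group the 3 genes most like it (1 gene named by this rule is not reported here), among genes that averaged at least 20 CPM. Positions are from GENCODE M21, and promoter windows from RefSeq. Genes on the opposite strand overlap Ccnd1, Ccnd2, Ccnd3, Cdk4, Cdk6, Cdkn1a and Cdkn1c; the 3′ kit keeps strand. Levels are compared within a gene, since 3′ counts are not scaled to length. Python 3.11.15, numpy 2.4.6, pandas 2.3.3, scipy 1.17.1 and matplotlib 3.10.9 were used with seed 1, and the steps were tested on simulated counts. Alternatives covered cell filters, doublets, hormone limits, scalings, ambient subtraction, expression minimums, other-type markers and cycling cells. No deposited file beyond the 4 libraries was used here.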

Additional observations from a re-analysis of the deposited data

Results flagged for a closer look

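Ccnd2 in Ins cells was 0.15 higher on the log2 scale in WT HFD than in WT SCD and gave -0.17 for HH HFD over HH SCD, so the single library pair of each genotype moved in opposite directions. Both ratios lay within the bulk of genes, at percentiles 76.0 and 34.7. The difference between the genotypes was not tested, since each of the 4 groups had 1 library. The 4 levels were 778, 704, 861 and 627 CPM in WT SCD, HH SCD, WT HFD and HH HFD.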

How the results depend on the processing

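No paired analysis was possible because each group had 1 library, and leaving out a library removed every contrast between libraries that used it. Of 1018 log2 ratios recomputed, 961 stayed within the counting interval of the main value. Of 460 levels, 399 stayed within 1 standard deviation over the libraries of the main mean. Of 193 counts and shares, 154 stayed the same, counts within a fixed factor of the main count and share differences within the main interval. For HH over WT in Ins cells on HFD, the count past the fold went from 0 to 1 without bounds on genes, with median-of-ratios factors and in cells of 15000 to 35000 UMIs (Cdkn2c each time), with at most 2 UMIs of other markers (Cdkn1b) and at a minimum of 1 CPM (Cdkn1c). On SCD it became 1 at 1 CPM (Cdkn2a). For HFD over SCD it became 1 in HH under the looser filter, without bounds on genes, with doublets kept, with median-of-ratios factors and with ductal markers allowed (Cdkn2c), and at 1 CPM (Cdkn1c), and 1 in WT at 1 CPM (Cdkn2a) and with at most 2 other-marker UMIs (Cdkn1b). In Gcg cells it became 1 on SCD (Ccnd2) and 0 on HFD with at most 2 other-marker UMIs, which left 1, 2, 5 and 23 Gcg cells in WT SCD, HH SCD, WT HFD and HH HFD, and 0 on HFD at 20 CPM. In Sst cells it became 1 on SCD with ductal markers allowed (Cdkn1b) and 0 on HFD at a hormone share of 10%, without cycling cells by either list and at 20 CPM.

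Without hormone genes in the total, 6 of 10 members kept their highest hormone group. List genes past the fold on SCD went from 0 of 49 in use to 3 of 54 under the looser filter, 3 of 54 without gene bounds, 1 of 72 without hormone genes and 2 of 83 at 1 CPM, where 1.12, 1.04, 1.76 and 3.16% of all genes were past it. On HFD they went from 1 to 5, 7, 9 and 19 in that order, against 5.53, 4.99, 6.19 and 8.15% of all genes, and to 2 of 49 with median-of-ratios factors, against 3.89%. Members past the fold in cycling cells of all libraries went from 0 of 7 to 2 under the looser filter and 2 without gene bounds (Cdkn1a and Cdkn2c), 3 without Spc25 in 3 libraries and 4 under the looser filter without Spc25, against 3.97, 1.87, 4.8 and 8.11% of all genes. The cycling difference on SCD was 1.71 points at 2 or more UMIs and -2.54 unthinned, and on HFD it reversed to -6.53 unthinned, where cell depth enters. Limiting cells to at most 2 other-marker UMIs left 4, 5, 24 and 93 Ins cells, because endocrine cells express ductal markers. It reversed Ccnd2 on SCD (0.0506), Cdkn1b on SCD (0.24) and HFD (1.19) in Ins cells and Ccnd2 on HFD in Gcg cells (0.0192). Median-of-ratios factors, which shift all genes, took Cdk4 to 0.000543 on SCD and 0.000221 on HFD, and a dominant share of 90% took Cdkn2c in Sst cells on HFD to -0.0472. Except where a construction is named, the cause was not tested. The Cdkn2c ratio in Ins cells on HFD was 0.29 to 0.58 except without cycling cells. The added alternatives (ductal markers allowed, 15000 to 35000 UMIs, lists without Spc25) were chosen after seeing the data.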
